A study of Mus musculus with 9 samples.

Results

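The 9 genes described here take part in the removal of dying germ cells and residual bodies by Sertoli cells, the somatic nurse cells of the seminiferous epithelium. They are the receptors *Tyro3*, *Axl*, *Mertk* and *Scarb1*, the bridging ligands *Gas6*, *Pros1* and *Mfge8*, and the intracellular effectors *Elmo1* and *Rac1*. They form a list of named genes, and all 9 were found among the 32035 genes measured. RNA of whole testes was sequenced in 3 libraries each of wild-type (WT) C57Bl6/N, *Kpna6* ΔIBB/ΔIBB and *Kpna6* −/− males. All males were 15 weeks old, and both mutant lines were backcrossed to C57Bl6/N. The labels do not say whether the libraries of a genotype came from separate animals. *Kpna6* encodes importin α7, an adaptor for nuclear import. In the ΔIBB/ΔIBB line exon 2 is deleted, and a truncated protein without the importin β binding domain can be made. In the −/− line a gene trap lies in intron 1, upstream of an alternative first exon that the study describes as being used in male germ cells. By immunostaining, the study found that −/− spermatids kept the full-length protein whereas −/− Sertoli cells lacked it. In ΔIBB/ΔIBB testes it detected no full-length protein. Both alleles are germline changes that are not limited to a cell type, and no cell type was separated before sequencing.

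Many germ cells that enter spermatogenesis die before they become sperm, and elongated spermatids shed a residual body at release. Phosphatidylserine exposed on this material is recognised directly by receptors such as SR-BI, the product of *Scarb1*, or through bridging proteins. GAS6 and protein S (*Pros1*) bridge phosphatidylserine to the TAM receptor tyrosine kinases TYRO3, AXL and MERTK, and MFG-E8 bridges it to αv integrins. ELMO1, with a DOCK protein, activates the small GTPase RAC1, which drives the actin rearrangement that closes the phagocytic cup.

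In *Kpna6* ΔIBB/ΔIBB testes, transcripts of all 3 TAM receptors, all 3 ligands and both effectors were higher than in WT testes, in a comparison where 36.6% of all genes tested were called and 17.7% were called higher. *Gas6* rose 1.72-fold and *Mfge8* 1.62-fold, *Mertk* rose 1.51-fold, and the other 5 rose between 1.24-fold and 1.37-fold. *Scarb1* was the one gene of the 9 that did not rise. In *Kpna6* −/− testes only *Gas6* differed from WT, at 1.44-fold.

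The sequences shown here are the 300-base promoter windows of *Gas6* and *Mfge8*, the genes with the largest fold changes of the 9, from 250 bases before to 50 after the RefSeq start (GRCm38.p6). The *Gas6* window is chr8:13494486-13494785 and the *Mfge8* window chr7:79149011-79149310, both on the minus strand. Capitals mark the GC box GGGCGG or its reverse complement, to which SP-family factors bind.
Gas6: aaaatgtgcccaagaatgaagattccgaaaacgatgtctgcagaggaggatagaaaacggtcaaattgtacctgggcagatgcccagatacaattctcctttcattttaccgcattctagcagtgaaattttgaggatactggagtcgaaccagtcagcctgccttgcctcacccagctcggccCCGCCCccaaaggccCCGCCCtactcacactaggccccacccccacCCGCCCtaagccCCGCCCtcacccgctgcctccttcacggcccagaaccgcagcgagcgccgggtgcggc
Mfge8: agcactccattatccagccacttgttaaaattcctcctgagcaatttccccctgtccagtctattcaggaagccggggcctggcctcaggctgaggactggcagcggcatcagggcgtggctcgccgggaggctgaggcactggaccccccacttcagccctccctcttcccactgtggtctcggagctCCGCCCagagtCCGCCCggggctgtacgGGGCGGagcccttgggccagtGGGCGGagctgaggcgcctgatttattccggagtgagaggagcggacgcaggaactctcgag
Each of these windows held 4 GC boxes. Promoter windows were found for 7 of the 9 genes (all but *Scarb1* and *Rac1*), 8 windows in all because *Elmo1* has a pair of them. GC boxes stood in 7 of the 8 windows and in 35.7% of 32851 mouse promoter windows. One window of 8, that of *Tyro3*, held the androgen receptor half-site AGAACA, which was present in 19.0% of all windows. The nuclear receptor half-site AGGTCA (16.3% of all windows), the GATA site AGATAA (11.2%), the SOX core AACAAT (10.7%) and the E-box CACGTG (7.15%) were not found in the 8 windows. Both strands were searched, and a match is only a match of letters.

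Between 24859751 and 31484692 estimated counts per library fell on genes. In CPM (counts divided by TMM-adjusted library sizes over the 9 libraries), *Kpna6* had 201, 325 and 334 in WT, 81.2, 85.3 and 81.8 in ΔIBB/ΔIBB and 247, 249 and 262 in −/− testes. It was thus lower in ΔIBB/ΔIBB than in WT (log2 fold change -1.79, SE 0.15, edgeR adjusted P = 1.94e-05), whereas −/− and WT testes overlapped (-0.18, SE 0.14, adjusted P = 0.586). WT replicate 1 lay below the other WT libraries in *Kpna6*. ΔIBB/ΔIBB replicate 3 stood apart in the epididymal secretory gene *Crisp1*, with 67.7 CPM against 0.0739 to 4.06 in the other 8 libraries, and its 8 epididymis markers summed to 73.3 CPM against 4.25 to 8.77. Of these markers *Lcn5* was at 0 in every library.

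Among the receptors, the TAM kinases were compared first between ΔIBB/ΔIBB and WT, the line in which *Kpna6* RNA was low. *Axl* had 52.1, 53.8 and 46.3 CPM in the 3 WT libraries, 69.8, 70.9 and 66.6 in the 3 ΔIBB/ΔIBB libraries and 52.7, 50.5 and 52.4 in the 3 −/− libraries. The ΔIBB/ΔIBB libraries all lay above the 6 others, which overlapped each other. *Tyro3* had 56.5, 51.8 and 51.9 CPM in WT, 69.3, 66.0 and 62.9 in ΔIBB/ΔIBB and 57.8, 53.3 and 50.5 in −/− testes, with the same separation. *Mertk*, the TAM receptor with the lowest level, had 7.96, 8.63 and 8.19 CPM in WT, 14.1, 11.2 and 12.1 in ΔIBB/ΔIBB and 8.62, 9.32 and 10.0 in −/− testes, and the lowest ΔIBB/ΔIBB library was above the highest of the others. All 3 rose in ΔIBB/ΔIBB by edgeR's quasi-likelihood test, *Mertk* by a log2 fold change of 0.59 (SE 0.11, adjusted P = 0.00151), *Axl* by 0.45 (SE 0.06, adjusted P = 0.000252) and *Tyro3* by 0.31 (SE 0.06, adjusted P = 0.00152). In whole testis, a change in the number of cells of a type and a change in RNA per cell cannot be told apart.

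*Scarb1*, which encodes a receptor for both phosphatidylserine and high-density lipoprotein and is also used by Leydig cells for cholesterol uptake, behaved otherwise. It had 133, 118 and 128 CPM in WT, 119, 118 and 100.1 in ΔIBB/ΔIBB and 138, 128 and 125 in −/− testes. The WT and ΔIBB/ΔIBB ranges overlapped, with a log2 fold change of -0.16 (SE 0.07, edgeR adjusted P = 0.0922). Between ΔIBB/ΔIBB and −/− testes 30.3% of all genes passed, and the share without overlap is not given here. For *Scarb1* every ΔIBB/ΔIBB library was lower than the −/− libraries, with a log2 fold change of -0.22 (SE 0.06, edgeR adjusted P = 0.0202). That call was lost when only protein-coding transcripts were counted (-0.19, adjusted P = 0.057), when −/− replicate 1 was left out (-0.18, adjusted P = 0.0865), with scaling by library size only (-0.12, adjusted P = 0.164) and on log2 TPM values with limma (-0.15, adjusted P = 0.226 with a pseudocount of 1). Without WT replicate 2, *Scarb1* was lower in ΔIBB/ΔIBB than in WT (-0.22, adjusted P = 0.0452), and without ΔIBB/ΔIBB replicate 3 it was not (-0.08, adjusted P = 0.29). The summed CPM of 8 Leydig cell markers overlapped between the groups, at 796 to 1358 in WT, 893 to 1166 in ΔIBB/ΔIBB and 1083 to 1199 in −/− testes, and their part in the *Scarb1* values was not tested.

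Of the ligands, *Gas6* and *Mfge8* had the largest fold changes of the 9 genes. *Gas6* had 74.1, 64.4 and 63.1 CPM in WT, 105, 112 and 130 in ΔIBB/ΔIBB and 99.1, 90.1 and 101 in −/− testes. In −/− against WT 0.889% of all genes passed and were higher, and the share without overlap is not given here. The 3 groups of *Gas6* values did not overlap, with WT lowest and ΔIBB/ΔIBB highest, and this was the one gene of the 9 whose −/− libraries all lay above WT. The log2 fold change was 0.78 in ΔIBB/ΔIBB (SE 0.08, edgeR adjusted P = 5.04e-05). Its highest value came from ΔIBB/ΔIBB replicate 3, the library with *Crisp1* RNA, and without that library the log2 fold change was 0.69 (edgeR adjusted P = 5.07e-05). The opposite-strand gene *Tmem255b*, which overlaps *Gas6*, had a mean count of 16.6.

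*Mfge8* had 72.2, 60.3 and 63.5 CPM in WT, 124, 102 and 92.3 in ΔIBB/ΔIBB and 64.3, 68.5 and 64.9 in −/− testes. Its ΔIBB/ΔIBB libraries spread more widely than those of the other groups but all lay above them. *Pros1* had 32.9, 28.6 and 31.2 CPM in WT, 44.2, 42.0 and 38.8 in ΔIBB/ΔIBB and 31.2, 30.8 and 32.5 in −/− testes, again with ΔIBB/ΔIBB separate. *Mfge8* rose by 0.70 (SE 0.10, edgeR adjusted P = 0.000337) and *Pros1* by 0.43 (SE 0.07, adjusted P = 0.000735) on the log2 scale.

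Both effectors rose. *Elmo1* had 52.6, 45.6 and 47.4 CPM in WT, 67.8, 66.1 and 57.1 in ΔIBB/ΔIBB and 49.5, 48.2 and 47.01 in −/− testes, and *Rac1* had 33.9, 31.9 and 33.5, then 42.7, 43.6 and 39.4, then 33.8, 35.7 and 35.6 CPM. In both genes the ΔIBB/ΔIBB libraries lay above the 6 others. The log2 fold changes against WT were 0.40 for *Elmo1* (SE 0.07, edgeR adjusted P = 0.00196) and 0.34 for *Rac1* (SE 0.06, adjusted P = 0.00111). The *Rac1* call was lost with length-scaled TPM counts (0.06, edgeR adjusted P = 0.637) and in limma fits of log2 TPM values (0.17, adjusted P = 0.273 with a pseudocount of 1). *Rac1* shares 2309 bases with the opposite-strand neighbour *Daglb*, whose mean count was 96.4 against 1071 for *Rac1*. The library kit is not stated to keep strand, and with both genes summed the change was 0.32 (edgeR adjusted P = 0.0021).

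**Figure D1:**
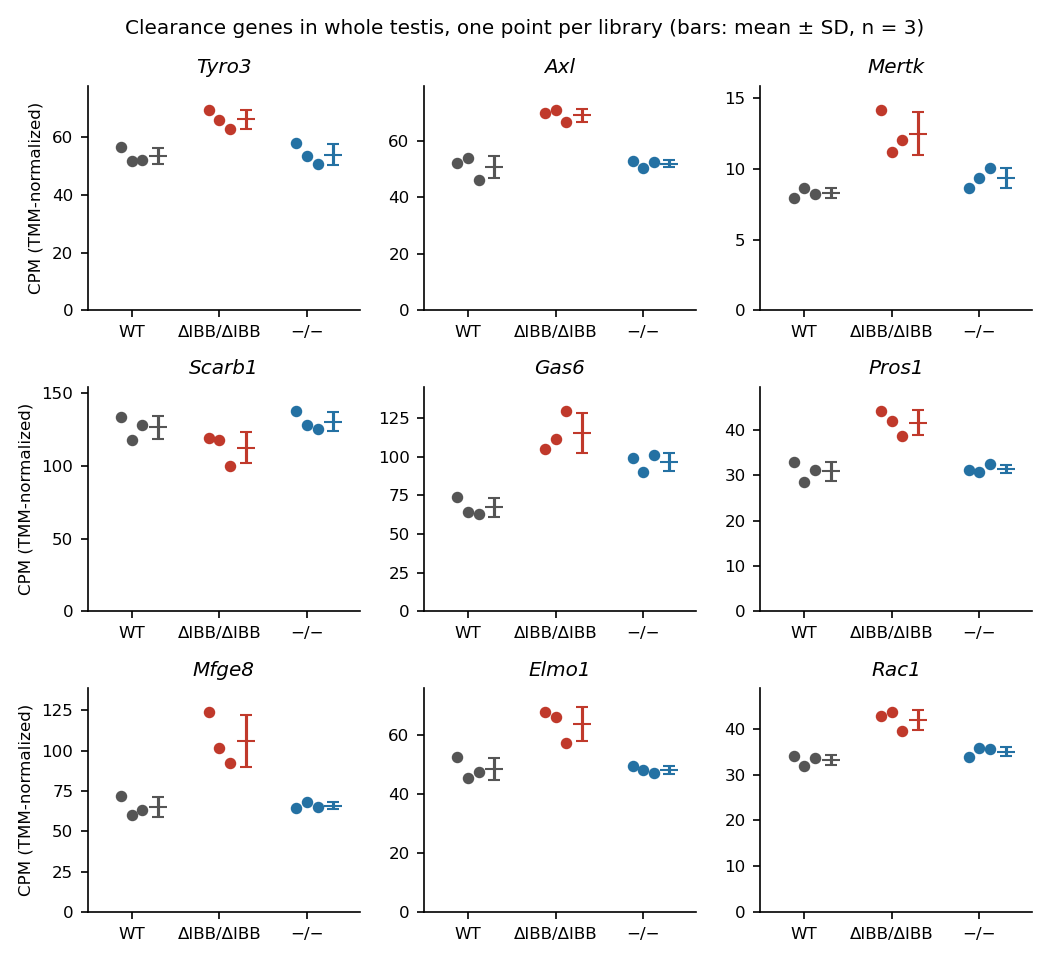
CPM (TMM-normalized counts; axes start at 0) of the 9 genes in whole testis, with 1 point per library and bars for the mean ± SD of 3 libraries per genotype (WT, ΔIBB/ΔIBB and −/−). The ΔIBB/ΔIBB points lie above all WT points in 8 of the 9 panels, and for *Gas6* the −/− points lie between the 2 other groups.

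In total, 8 of the 9 genes passed an adjusted P-value of 0.05 in ΔIBB/ΔIBB against WT, all 8 of them higher, where 36.6% of the 18797 genes tested passed and 17.7% passed and were higher. For these 8 genes every ΔIBB/ΔIBB library was above every WT library, as it was for 24.8% of all genes tested. The median log2 fold change was 0.43 over the 9 genes and 0.01 over all genes. When libraries were scaled by size alone, the median of all genes moved to 0.11 and the calls shifted from 3328 higher and 3548 lower to 5416 higher and 2326 lower, with the same number, 8, of the clearance genes called.

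Against WT, the −/− testes gave 1 call among the 9 genes, where 1.6% of 18681 genes passed and 0.889% passed and were higher. This gene was *Gas6* (log2 fold change 0.52, SE 0.07, edgeR adjusted P = 0.0016). It kept its direction in limma fits of log2 TPM values but did not pass there (0.50, adjusted P = 0.147 with a pseudocount of 1). The other 8 genes had log2 fold changes between -0.01 and 0.17 with SEs of 0.05 to 0.10 and adjusted P-values of 0.438 to 0.958. *Mertk* had the highest of these, at 0.17 (SE 0.10, adjusted P = 0.438).

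Compared with −/− directly, ΔIBB/ΔIBB testes differed in all 9 genes, with 8 higher and *Scarb1* lower, where 30.3% of 18752 genes passed and 13.5% passed and were higher. *Mfge8* differed most, with a log2 fold change of 0.68 (SE 0.08, edgeR adjusted P = 0.000115). *Mertk* (0.41), *Axl* (0.41), *Pros1* (0.40) and *Elmo1* (0.40) followed. *Gas6*, which was raised in both lines, differed by 0.25 (SE 0.07, edgeR adjusted P = 0.0206) and did not pass without −/− replicate 2 (0.20, adjusted P = 0.0952), and it was 0.16 (adjusted P = 0.0343) without ΔIBB/ΔIBB replicate 3. *Rac1* (0.25) did not pass with length-scaled TPM counts (0.03, edgeR adjusted P = 0.836) or in limma fits of log2 TPM values (0.15, adjusted P = 0.223 with a pseudocount of 1). The comparisons of the 2 lines with WT share the 3 WT libraries, so the *Gas6* calls in both are not independent.

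**Figure D2:**
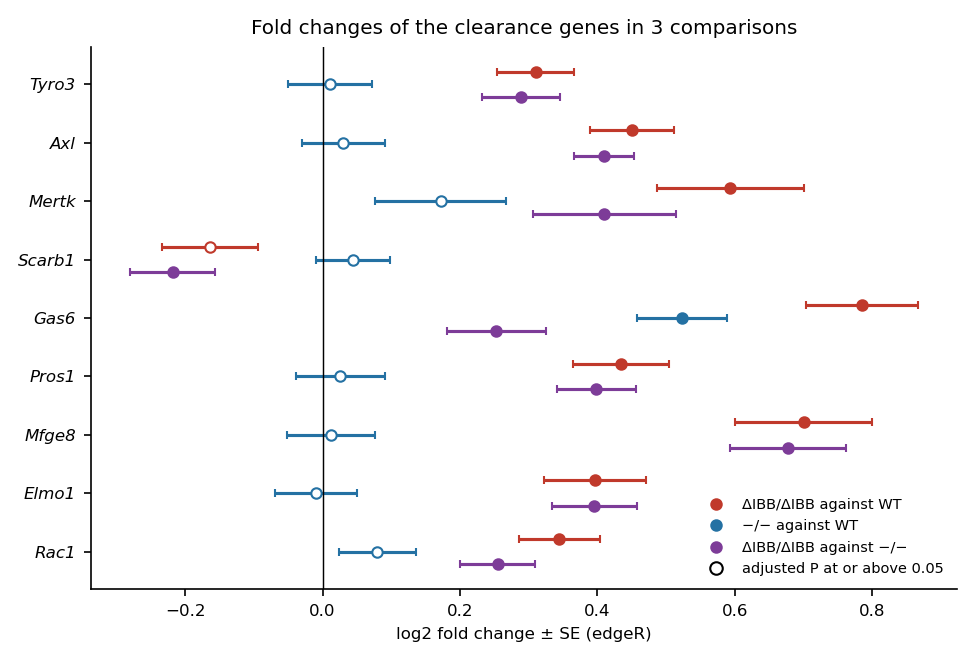
Log2 fold change ± SE (edgeR, x axis) of each of the 9 genes (y axis) in 3 comparisons, shown by colour, with filled points for adjusted P-values below 0.05 and open points otherwise. Against WT, 8 filled points stand right of 0 for ΔIBB/ΔIBB, from 0.31 to 0.78, and 1 for −/−, *Gas6* at 0.52.

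Levels of different genes were compared per length in TPM (kallisto transcript abundance corrected for length), counting protein-coding transcripts only. In WT testes the order was *Scarb1* (55.7 ± 4.07 TPM, SD, n = 3), *Mfge8* (43.2 ± 4.31), *Gas6* (34.6 ± 2.79), *Elmo1* (16.8 ± 1.27), *Tyro3* (16.1 ± 0.730), *Axl* (14.6 ± 0.858), *Rac1* (14.2 ± 0.624), *Pros1* (11.2 ± 0.898) and *Mertk* (2.24 ± 0.0856). The neighbours *Elmo1* and *Tyro3*, and *Axl* and *Rac1*, overlapped in range. In ΔIBB/ΔIBB testes *Mfge8* (75.7 ± 11.6) and *Gas6* (65.0 ± 6.57) came before *Scarb1* (57.1 ± 7.16), although the ranges of neighbours among these 3 overlapped. In −/− testes *Gas6* (49.5 ± 2.73) stood above *Mfge8* (42.9 ± 1.63), the reverse of their order in WT.

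The 3 TAM receptors together had 32.9 ± 0.902 TPM in WT, 47.1 ± 2.19 in ΔIBB/ΔIBB and 33.4 ± 1.48 in −/− testes (SD, n = 3). *Tyro3* and *Axl* made up 48.8% and 44.4% of this sum in WT, and *Mertk* 6.81%. The TAM ligands *Gas6* and *Pros1* together had 45.8 ± 3.502, 81.8 ± 5.32 and 61.1 ± 3.18 TPM. The ligand sum per receptor sum was therefore 1.39 ± 0.0762 in WT, 1.75 ± 0.196 in ΔIBB/ΔIBB and 1.83 ± 0.123 in −/− testes, with both lines above the WT range of 1.31 to 1.47. *Gas6* contributed 75.6% of the ligand sum in WT, 79.3% in ΔIBB/ΔIBB and 81.1% in −/− testes.

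*Rac1* was the gene whose rank depended most on the transcripts counted. Only 26.7% of its TPM in WT lay on protein-coding transcripts. The noncoding transcripts Rac1-203 (344 bases) and Rac1-204 (585 bases) held 47.5% and 25.75%. TPM divides by length, and most estimated counts of *Rac1* lay on coding transcripts. Rac1-203 had 45.1 to 58.0 estimated counts per WT library, against 582 to 619 for the coding Rac1-202. With all transcripts, *Rac1* had 53.5 ± 5.39 TPM in WT, 60.5 ± 5.36 in ΔIBB/ΔIBB and 54.2 ± 2.62 in −/− testes. In edgeR fits of counts the difference from WT passed with all transcripts (0.34) and with coding transcripts alone (0.38, adjusted P = 0.000938).

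In *Mfge8*, *Scarb1* and *Rac1* a pair of coding transcripts differs by a cassette exon, and these exons are shown because they separate the protein forms (GENCODE M21, GRCm38, all on the minus strand, read 5′ to 3′, with no base singled out in capitals). Exon 4 of Mfge8-201 (chr7:79143278-79143388, 111 bases) encodes the proline- and threonine-rich segment of the long MFG-E8 form and is absent from Mfge8-202. Exon 12 of Scarb1-201 (chr5:125281105-125281233, 129 bases) encodes the end of the cytoplasmic tail of SR-BI, and Scarb1-202, which skips it, encodes SR-BII. Exon 4 of Rac1-202 (chr5:143509597-143509653, 57 bases) is the insertion of the RAC1B form.
Mfge8 exon 4: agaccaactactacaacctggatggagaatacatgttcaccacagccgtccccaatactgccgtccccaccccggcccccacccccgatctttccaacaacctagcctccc
Scarb1 exon 12: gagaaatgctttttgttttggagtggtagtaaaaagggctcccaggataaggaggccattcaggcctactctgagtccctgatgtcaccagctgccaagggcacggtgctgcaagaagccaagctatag
Rac1 exon 4: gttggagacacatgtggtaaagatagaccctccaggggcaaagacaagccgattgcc

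At the level of transcripts, 10 of the 34 tested from these genes passed in ΔIBB/ΔIBB against WT, 9 of them higher, where 9.73% of 47090 transcripts passed. In 7 genes the called coding transcript was the main one: Gas6-201 (log2 fold change 0.80), Mertk-201 (0.67), Mfge8-202 (0.55), Pros1-201 (0.48), Axl-201 (0.47), Elmo1-201 (0.42) and Tyro3-201 (0.32). Rac1-202 rose by 0.43 (SE 0.08, edgeR adjusted P = 0.0208). The retained-intron transcript Axl-206 rose by 1.91 (SE 0.38, adjusted P = 0.0247) from 0.503 to 2.04 TPM. It is a minor form, with 2.30% of the *Axl* TPM in WT and 6.0% in ΔIBB/ΔIBB. Its estimated counts were low, at 5.49 to 7.13 per WT library and 19.1 to 28.6 per ΔIBB/ΔIBB library. Without the count filter its edgeR adjusted P-value was 0.0496.

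The called transcript that fell was Scarb1-203, a retained-intron form without a coding sequence. It had 14.0, 16.0 and 17.2 TPM in WT, 7.81, 8.70 and 7.999 in ΔIBB/ΔIBB and 11.1, 12 and 11.99 in −/− testes. The 3 groups did not overlap, and the log2 fold change in ΔIBB/ΔIBB was -1.05 (SE 0.14, edgeR adjusted P = 0.00704). The coding forms went opposite ways without passing, Scarb1-201 at 0.31 (SE 0.14, adjusted P = 0.239) and Scarb1-202 at -0.36 (SE 0.09, adjusted P = 0.056).

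As a share of both coding forms, Scarb1-201 made up 39.0%, 33.1% and 30.7% in WT, 44.3%, 46.1% and 46.0% in ΔIBB/ΔIBB and 43.7%, 35.1% and 38.2% in −/− testes. The ΔIBB/ΔIBB shares lay above all 6 others, by 11.2 percentage points over WT (two-sided exact permutation test, P = 0.1, the smallest possible with 3 against 3, and 0.45 after adjustment over 9 such comparisons). Mfge8-201 made up 34.5%, 20.4% and 17.3% of its pair in WT, 33.7%, 33.2% and 29.0% in ΔIBB/ΔIBB and 30.1%, 26.9% and 24.5% in −/− testes. Here WT replicate 1 stood apart from the other WT libraries, and the groups overlapped (exact permutation P = 0.4 for ΔIBB/ΔIBB against WT, adjusted 0.643). Rac1-202 made up 84.6 ± 1.59%, 86.0 ± 2.29% and 85.7 ± 2.35% of its pair with Rac1-201, but these transcripts also differ in their 3′ ends, so the share cannot be assigned to the exon.

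**Figure D3:**
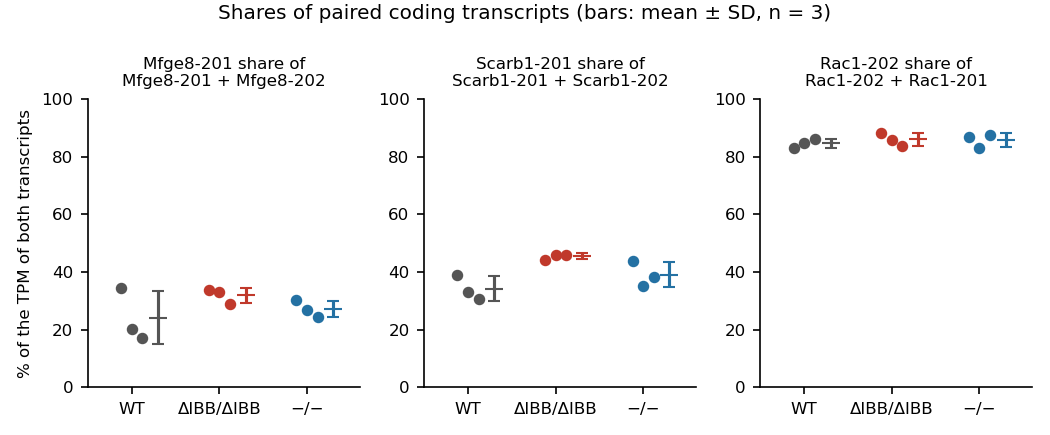
Share of the first-named transcript in the TPM of a pair of coding transcripts (y axis, 0 to 100%), for *Mfge8*, *Scarb1* and *Rac1*, with 1 point per library and bars for the mean ± SD of 3 libraries per genotype. The Scarb1-201 share is 44.3% to 46.1% in ΔIBB/ΔIBB and at most 39.0% in WT, while the Mfge8-201 shares overlap.

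In −/− against WT, 0 of 33 transcripts of these genes passed (edgeR), where 0.0561% of 46346 passed, and 2 had an unadjusted P-value below 0.05. These were Gas6-201 (0.53, adjusted P = 0.137) and Scarb1-203 (-0.41, adjusted P = 0.553). In ΔIBB/ΔIBB against −/−, 8 of 34 passed, 7 of them higher, where 7.35% of 46901 passed. Mfge8-201 was among them at 0.93 (SE 0.16, edgeR adjusted P = 0.0173), with Mfge8-202 at 0.59 (SE 0.09, adjusted P = 0.0116).

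Markers of the cells that could carry this RNA also moved. All 12 Sertoli cell markers rose in ΔIBB/ΔIBB against WT, with a median log2 fold change of 0.59, and their sum was 1053 to 1146 CPM in WT, 1513 to 1807 in ΔIBB/ΔIBB and 1243 to 1323 in −/− testes. In −/− testes all 12 had a positive log2 fold change, and 2 passed (*Clu* at 0.25 and *Aard* at 0.32), where 1.6% of all genes passed. The study, in contrast, counted fewer Sertoli cells per tubule in adults of both lines. Its real-time PCR of adult testes found a marked change only for *Cldn3*, among genes that included *Rhox5*, *Wt1*, *Clu*, *Gata1* and *Cldn11*. Marker RNA here is a share of the library and not a cell count. The marker lists were chosen with earlier results of these data known, so the numbers of markers that moved are descriptions only. In ΔIBB/ΔIBB 7 of 8 round spermatid markers and 8 of 8 elongating spermatid markers fell, with medians of -0.52 and -0.40. Of 10 macrophage markers 2 rose in ΔIBB/ΔIBB, *Cd68* (0.61) and *Mrc1* (0.53), and none of the 10 was at 0 in every library. The macrophage sum was 74.4 to 90.3 CPM in WT, 98.1 to 110 in ΔIBB/ΔIBB and 82.6 to 93.6 in −/− testes. For 8 peritubular and endothelial markers the sums were 125 to 130 CPM, 157 to 177 and 131 to 133, with 3 of 8 higher in ΔIBB/ΔIBB. Of the 8 Leydig cell markers 2 rose, and of the 8 spermatocyte markers 1 rose and 1 fell. Over all genes tested in ΔIBB/ΔIBB against WT, 36.6% were called and 17.7% were called higher. The part of these cell types in the values of the clearance genes was not tested.

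Each clearance gene was also expressed relative to the geometric mean of the 12 Sertoli markers, which was 24.5, 21.3 and 20.8 CPM in WT, 39.5, 36.8 and 36 in ΔIBB/ΔIBB and 26.5, 27.5 and 25.8 in −/− testes. This mean is a level of marker RNA and not a count of cells, and its members rose unequally, from *Dhh* (0.34) to *Amh* (1.78). Per Sertoli marker level no gene was higher in every ΔIBB/ΔIBB library than in every WT library. *Gas6* (log2 difference 0.02, exact permutation P = 0.8), *Mfge8* (-0.07, P = 0.5) and *Mertk* (-0.17, P = 0.3) overlapped with WT. *Axl* (-0.31), *Pros1* (-0.33), *Elmo1* (-0.37), *Rac1* (-0.42), *Tyro3* (-0.45) and *Scarb1* (-0.93) were lower in all 3 ΔIBB/ΔIBB libraries (each exact permutation P = 0.1, the smallest possible, and 0.15 adjusted over 27 comparisons). All these ratios share a denominator that rose, with a median marker log2 fold change of 0.59 against 0.01 over all genes. The share of all genes that were lower on this scale was not computed. Apart from *Scarb1*, the genes with lower ratios were higher than WT in CPM, so their lower ratios are not decreases in RNA. Without *Amh* the difference of *Tyro3* was -0.36 and that of *Pros1* -0.23.

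In −/− testes *Gas6* was the one gene above WT in all 3 libraries on this scale, by 0.26 (exact permutation P = 0.1, 0.15 adjusted). The other 8 had differences of -0.27 to -0.09, and 7 of them, all but *Mertk*, were below WT in all 3 −/− libraries with the same exact permutation P = 0.1. These 8 genes share the same denominator, and none passed in the edgeR test of −/− against WT (log2 fold changes of -0.01 to 0.17). The lower ratios are therefore not separate decreases in RNA. The WT ratios of *Gas6* were nearly the same in the 3 libraries, at 1.60, 1.60 and 1.60 on the log2 scale, and those of ΔIBB/ΔIBB ranged from 1.41 to 1.85. *Mfge8* was higher in ΔIBB/ΔIBB than in −/− per Sertoli marker level, by 0.18, with no overlap (exact permutation P = 0.1, 0.15 adjusted).

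**Figure D4:**
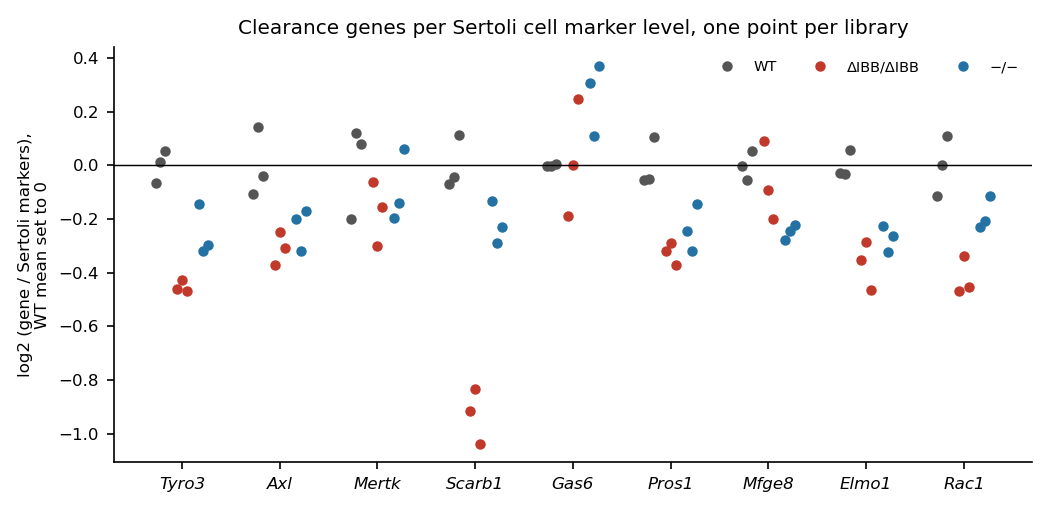
Log2 ratio of each gene's CPM to the geometric mean CPM of 12 Sertoli markers (y axis, WT mean set to 0), with 1 point per library and colours for genotype. *Scarb1* lies lowest in ΔIBB/ΔIBB, 0.93 below WT on average, and *Gas6* is the one gene with all 3 −/− points above WT.

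The wider clearance machinery was examined through 84 further genes in 4 lists, which moved in both directions. Of 82 tested in ΔIBB/ΔIBB against WT, 28 rose and 10 fell, with a median log2 fold change of 0.15, where 36.6% of all genes tested were called and 17.7% were called higher. With scaling by library size only, 39 rose and 7 fell. Among the other receptors and bridging molecules 8 of 26 rose and 1 fell, a share of calls near the 36.6% of all genes. *Lrp1*, an endocytic receptor that binds calreticulin on dying cells, had 88.6 to 101 CPM in WT and 146 to 153 in ΔIBB/ΔIBB testes and rose by 0.67 (SE 0.05, edgeR adjusted P = 1.51e-05). *Thbs1*, which encodes the bridging protein thrombospondin 1, rose by 0.59 (adjusted P = 0.00306) and *C1qc*, a chain of the complement component C1q, by 0.49 (adjusted P = 0.032). *Adgrb1* fell. This gene encodes BAI1, a phosphatidylserine receptor that signals to ELMO1, and it had 10.8, 7.97 and 9.43 CPM in WT, 4.33, 4.53 and 4.41 in ΔIBB/ΔIBB and 6.88, 7.24 and 6.51 in −/− testes. The 3 groups did not overlap, and the log2 fold change was -1.08 in ΔIBB/ΔIBB (SE 0.13, edgeR adjusted P = 0.000105) and -0.45 in −/− (SE 0.12, adjusted P = 0.0843).

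Of 27 genes of engulfment signalling, 12 rose and 6 fell, where 36.6% of all genes tested were called and 17.7% were called higher. Close relatives of the effectors differed. *Elmo2* rose by 0.29 (adjusted P = 0.0235) beside *Elmo1*, and *Elmo3* fell by 0.19 (adjusted P = 0.0258). *Rac2*, the GTPase of blood cells, fell by 0.66 (SE 0.16, adjusted P = 0.00915) where *Rac1* rose, and *Rac3* gave 0.44 (adjusted P = 0.23). Of the DOCK exchange factors, *Dock1* rose (0.34), *Dock2* fell by 0.30 and *Dock5* had -0.17 (adjusted P = 0.0597). Of the subunits of the WAVE complex, which acts on actin downstream of RAC1, *Cyfip1* (0.42), *Nckap1* (0.31), *Abi1* (0.30) and *Brk1* (0.30) rose, and *Wasf2* had -0.14 (adjusted P = 0.0905). *Vav3*, an exchange factor for RAC GTPases, had 22 to 22.4 CPM in WT and 9.81 to 13.1 in ΔIBB/ΔIBB and fell by 0.95 (SE 0.10, edgeR adjusted P = 5.02e-05). *Plcg2*, a phospholipase of immune receptor signalling, fell in both lines, by 0.67 in ΔIBB/ΔIBB (adjusted P = 0.000705) and by 0.63 in −/− (adjusted P = 0.00768).

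Of 20 genes of phagosome maturation 5 rose and 1 fell, beside 36.6% called over all genes, and with scaling by library size only 13 rose and 1 fell. *Dnase2a*, the lysosomal nuclease that digests the DNA of engulfed cells, rose by 0.56 (SE 0.15, edgeR adjusted P = 0.013), and *Ctsd* (0.47), *Map1lc3b* (0.35), *Atg16l1* (0.33) and *Rab7* (0.24) also rose. Of 9 genes for exposure or restraint of eat-me signals 3 rose and 2 fell, beside the same share. In −/− testes 2 of 82 genes passed, where 1.6% of all genes did, both lower: *Plcg2* and the opsonin *Lgals3* (-0.71, SE 0.16, adjusted P = 0.0466). Between the lines, 21 of 81 were higher and 11 lower in ΔIBB/ΔIBB, where 30.3% of all genes passed.

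**Figure D5:**
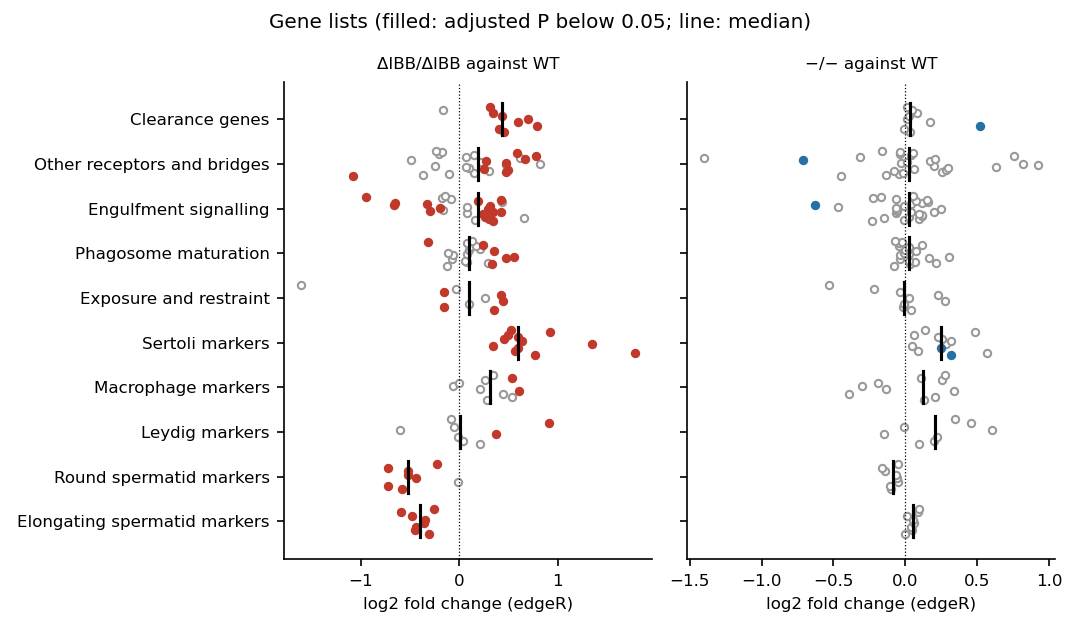
Log2 fold changes (edgeR, x axis) of the 9 clearance genes, the 4 lists of other clearance genes and 5 marker lists (y axis) in ΔIBB/ΔIBB (left) and −/− (right) against WT, 1 point per gene, filled where the adjusted P-value was below 0.05, with a line at each median. In the left panel 12 of 12 Sertoli markers are filled to the right of 0 and 8 of 8 elongating spermatid markers to the left.

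Genes with the most similar profile were sought among 19058 genes by the root mean square difference of centred log2 CPM over the 9 libraries, as a description only. The nearest was *Pf4* for *Mfge8* (0.04), *Iffo2* for *Gas6* (0.09), *Mid1ip1* for *Mertk* (0.06), *Hk2* for *Axl* (0.04), *Cmas* for *Tyro3* (0.03) and *Abhd16b* for *Scarb1* (0.04). *Ccnjl* was among the closest 2 genes for both *Pros1* and *Elmo1*. *Gas6* had the largest difference from its nearest neighbour of the 9 genes, with the second, *Srebf1*, at 0.10. The measure is not scaled by a gene's own spread over the libraries. That spread was 0.34 for *Gas6*, 0.34 for *Mfge8* and 0.13 for *Scarb1* on the log2 scale, so the differences are not comparable between genes of unlike spread.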

How the data were processed

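The data are RNAseq of poly(A) RNA from whole testes, with 3 libraries for each of the 3 genotypes. The authors deposited, for each of 96626 transcripts, an estimated count, not normalized between libraries, and a TPM value. The submitters' processing notes name kallisto 0.45 and mm10, and which transcript release was indexed is not given in the sources used here. By identifier, 95301 transcripts (98.63%) were assigned to 32035 genes of GENCODE M21 (GRCm38), and values were summed per gene.

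After rounding, filterByExpr and TMM scaling, gene counts were fitted by the quasi-likelihood method in edgeR 4.0.16 (R 4.3.3), using only the 6 libraries of the 2 groups compared and Benjamini-Hochberg adjustment over all genes tested. Transcripts were tested likewise. The authors' tests used sleuth, which was not used here. Single ratios and shares were compared by two-sided exact permutation tests, which cannot give a P-value below 0.1 with 3 against 3. Alternatives were DESeq2 1.42.0, other filters and scalings, limma 3.58.1 on log2(TPM + 1) or log2(TPM + 0.1), all 9 libraries in 1 fit, the replicate number as a block, and each library left out. Counting only coding transcripts of the 9 genes was added after seeing the data.

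The genes named were the 9, *Kpna6*, close relatives and other list genes given as examples after their values were seen, genes sharing sequence with the 9 (blastn 2.17.0, at least 95% identity over 100 bases), the closest 2 profiles per gene (some not reported here), transcripts with at least 10% of a gene's TPM, and, from the 4 lists, the 4 genes per direction with the largest fold change among those with adjusted P-values below 0.05 and at least 1 TPM in a group, plus those called in −/−. The 9 genes and all lists were chosen with earlier results of these data known. On counts simulated for ΔIBB/ΔIBB against WT with 200 changed genes among 18691 tested, edgeR recovered 98 of 100 changed 2-fold and 64 of 100 changed 1.5-fold and called 6 unchanged genes. The spread between simulated libraries was set by a formula and not estimated from these data. Changes were balanced up and down, so these figures need not hold for the real comparison. The labels list replicates without saying whether they were separate animals, and P-values measure only the spread between these samples. Tables were handled with pandas 2.3.3 and plots drawn with matplotlib 3.10.9.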

Additional observations from a re-analysis of the deposited data

How the results depend on the processing

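Over 17 alternatives, *Mertk*, *Axl*, *Tyro3*, *Gas6*, *Pros1*, *Mfge8* and *Elmo1* stayed higher in ΔIBB/ΔIBB than in WT and past the threshold in each, with log2 fold changes of 0.49 to 0.69, 0.39 to 0.60, 0.27 to 0.43, 0.69 to 0.90, 0.35 to 0.53, 0.57 to 0.81 and 0.34 to 0.52. *Rac1* stayed higher but did not pass with length-scaled TPM counts (0.06, adjusted P = 0.637) or limma (0.17 and 0.18), in which the short transcript Rac1-203 weighs more, and against −/− under the same settings it was 0.03, 0.15 and 0.16. *Scarb1* passed as lower than in WT with DESeq2 (-0.17) and with length-scaled TPM counts (-0.31), and the cause was not tested. With limma on log2 TPM, 0 of the 9 genes passed in −/− against WT, with either pseudocount, where 19 genes of all passed with a pseudocount of 1 and 2490 did at an unadjusted P-value of 0.05. The 84 other clearance genes then gave 19, 0 and 21 calls in ΔIBB/ΔIBB against WT, −/− against WT and ΔIBB/ΔIBB against −/− instead of 38, 2 and 32, and their 4 lists 4, 10, 3 and 2 in the first comparison instead of 9, 18, 6 and 5. Scaling by library size alone gave 14 calls for phagosome maturation instead of 6. Leaving out 1 library at a time gave 8 to 9, 1 to 1 and 8 to 9 calls among the 9 genes.

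Signs turned only for genes without a call in −/− against WT. With length-scaled TPM, limma at a pseudocount of 1 and limma at 0.1, *Axl* was -0.0163, -0.0284 and -0.0296, *Tyro3* -0.0424, -0.0502 and -0.0524, *Scarb1* -0.0378, -0.048 and -0.0485, and *Pros1* -0.089, -0.103 and -0.109. With 1 library left out, *Axl* ranged from -0.0305 to 0.0744, *Tyro3* from -0.0421 to 0.0558, *Scarb1* from -0.0044 to 0.0853, *Pros1* from -0.0276 to 0.0747, *Mfge8* from -0.0435 to 0.0906 and *Elmo1* from -0.0537 to 0.0539. Over all genes, −/− against WT gave 299 calls, 19 to 624 over the alternatives and 518 without WT replicate 1. Per Sertoli marker level, signs also turned in ΔIBB/ΔIBB against WT when 1 marker at a time was left out. There *Gas6* ranged from -0.0186 to 0.1157 and *Mfge8* from -0.1057 to 0.0286.

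Deviations of libraries with the same replicate number had correlations of -0.039 to 0.174, and those with different numbers -0.156 to 0.106. With 3 libraries per group, these values cannot decide whether the numbers pair the libraries. With the replicate block the 9 genes gave 8, 1 and 9 calls, as without it, and all genes gave 6794, 229 and 6033 instead of 6876, 299 and 5674. Depth limits *Mertk* most, with 225 to 383 counts per library.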
